A study of Rattus norvegicus with 3 samples.

Results

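In all, 10 genes of eicosanoid synthesis and signalling were read in single-cell RNA sequencing of diabetic rat skin wounds, of 32883 features in the deposited matrices. The 10 genes are the cyclooxygenases Ptgs1 and Ptgs2, the terminal synthases Ptges and Hpgds, the prostaglandin E2 receptors Ptger2 and Ptger4, and the leukotriene genes Alox5, Alox5ap, Ltc4s and Lta4h. They were found by their symbol in the feature table, and all 10 had UMIs (unique molecular identifiers, counts of captured RNA molecules). The list was chosen with earlier results of these data known, so it is not independent evidence. The animals were wild type male Sprague-Dawley (SD) rats given streptozotocin (STZ), a toxin of pancreatic beta cells, at 65 mg/kg and an age of 7 to 9 weeks, with tissue labelled as 8 to 10 weeks of age in all 3 groups, and kept in the study when blood glucose exceeded 16.7 mM. Full-thickness skin wounds of 15 mm received a carbon monoxide-releasing hyaluronic acid hydrogel (CO hydrogel), a hyaluronic acid hydrogel without CO (hydrogel), or no treatment (untreated), and tissue was taken at 7 days. STZ diabetes was shared by all 3 groups, with no normoglycaemic wound to set beside them, and the number of animals in a library is not given in the sources used here. Each group had 1 library, so no test between groups was possible, no p-value is given, and the treatment cannot be told apart from the animal or the library. Intervals are given at 95% and hold the error of counting alone.

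Eicosanoids are lipid signals made from arachidonic acid, which phospholipases release from membranes. Cyclooxygenases turn it into prostaglandin H2, from which terminal synthases make prostaglandin E2, prostaglandin D2 and other prostanoids. In the other branch 5-lipoxygenase, presented with its substrate by an activating protein, makes leukotriene A4, which becomes the neutrophil attractant leukotriene B4 or the cysteinyl leukotrienes. In wounded skin these lipids are known for their part in vessel leakage, pain, leukocyte entry and repair.

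The matrices held 15376, 15442 and 12883 barcodes and 109718517, 109148721 and 78233883 UMIs for CO hydrogel, hydrogel and untreated wounds, in that order. After filtering, 13144, 12653 and 10676 cells were kept, with median UMIs per cell of 5856.5, 5563 and 2624.5 and a median mitochondrial share of 4.88%, 3.98% and 2.04%. CO hydrogel and hydrogel libraries shared 477 barcodes, CO hydrogel and untreated libraries shared 600, and hydrogel and untreated libraries shared 364. Clusters were named as like a cell class by marker genes that include none of the 10 genes. Fibroblast-like cells numbered 5113, 1738 and 1397 in CO hydrogel, hydrogel and untreated wounds, neutrophil-like cells 458, 2796 and 5649, and cells like macrophages or monocytes 2855, 3207 and 1057. Endothelial-like cells (1557, 1096 and 324), mural-like cells (1194, 1023 and 634) and smaller classes made up the rest, with 4 clusters left unnamed. The labelled tissue is skin, and keratinocyte-like cells numbered 270, 117 and 105.

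Within classes, a gene's UMIs were summed over the cells of a library and divided by all UMIs of those cells, as CPM (counts scaled to 1000000 UMIs of the class). Between libraries, a ratio was read where both together held 100 or more UMIs of the gene and each had 100 or more cells of the class, and a ratio of at least 2-fold was counted. Of 34 such values of the 10 genes between the CO hydrogel and hydrogel wounds, 10 were at least 2-fold apart, 4 higher and 6 lower, against 3.78% of all values of all genes in the named classes (1.99% higher, 1.79% lower). Between the CO hydrogel and untreated wounds 10 of 32 were at least 2-fold apart, 1 higher and 9 lower, against 8.86% of all values (6.84% higher, 2.02% lower). Between the hydrogel and untreated wounds 8 of 27 were at least 2-fold apart, 1 higher and 7 lower, against 8.22% of all values (6.29% higher, 1.94% lower). Macrophage or monocyte-like cells held 6 of the 10, 3 of the 10 and 4 of the 8 values counted in the 3 pairs, from 9, 9 and 8 genes read, against 6.95%, 3.62% and 5.4% of all genes of that class. They were 4 higher and 2 lower for CO hydrogel to hydrogel (4.56% and 2.39% of all genes), 1 higher and 2 lower for CO hydrogel to untreated (2.54% and 1.08%), and 1 higher and 3 lower for hydrogel to untreated (2.97% and 2.43%). In fibroblast-like cells 2 of 6, 3 of 6 and 1 of 6 genes were at least 2-fold apart in the same pairs, all lower, against 3.64%, 9.65% and 8.11% of all genes (1.77%, 3.51% and 3.27% lower). In neutrophil-like cells the counts were 0 of 4, 1 of 4 and 1 of 4, both lower, against 5.75%, 39.2% and 34.4% of all genes (3.91%, 4.66% and 2.4% lower), and in mural-like cells 1 of 4 in each pair, against 1.48%, 3.83% and 3.07%. Giving each cluster of a class the same weight in both libraries lowered the counts to 3 for CO hydrogel to hydrogel and 4 for hydrogel to untreated, so values of the clusters are given beside those of the class. Leaving out barcodes found in more than 1 library and clustering anew also moved the macrophage or monocyte-like class. It then held 2112, 1073 and 807 cells of CO hydrogel, hydrogel and untreated wounds, against 2855, 3207 and 1057 before. In the hydrogel wound it lost more cells than that library shares barcodes, so the ratios also hold the regrouping of cells. The parts of barcodes and regrouping were not tested. The log2 ratios of CO hydrogel to hydrogel were then -0.78 for Ptgs2, -2.12 for Ptges, 1.62 for Hpgds, 1.13 for Alox5, 0.91 for Alox5ap and 1.15 for Ltc4s, each on the same side of 0 as with those barcodes (-1.19, -3.88, 2.77, 2.48, 1.53 and 2.39). For hydrogel to untreated they were 0.39 for Ptges, -0.06 for Alox5, -0.86 for Alox5ap and -1.05 for Ltc4s, where the values with those barcodes were 2.44, -1.58, -1.62 and -2.59.

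**Figure D1:**
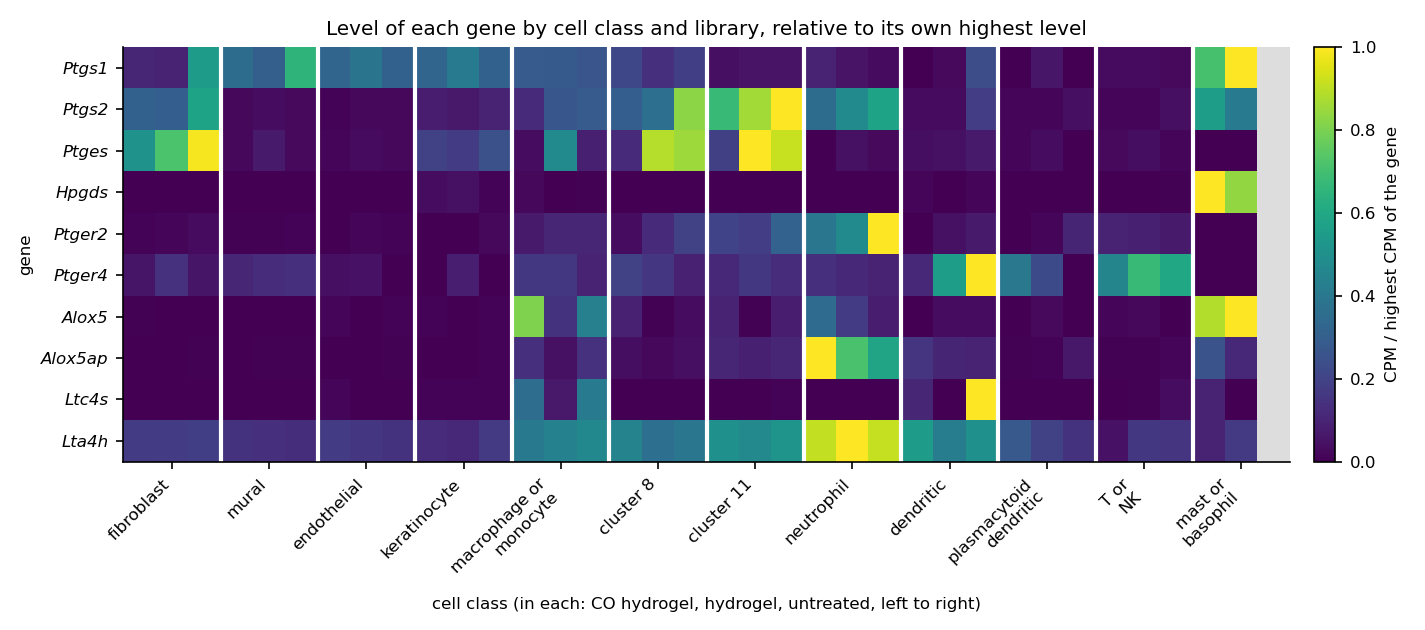
Level of each of the 10 genes (rows) in each cell class, with the CO hydrogel, hydrogel and untreated libraries side by side within a class (columns); colour is the CPM of the class sum relative to the highest level of the same gene. Ptgs2 was spread over fibroblast-like, neutrophil-like and myeloid cells, while macrophage or monocyte-like cells held 94.8%, 96.0% and 83.3% of Ltc4s UMIs. Grey marks mast or basophil-like cells of the untreated wound, too few for a level.

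Ptgs2, the inducible cyclooxygenase, had 344945 UMIs over the 3 libraries. In fibroblast-like cells it stood at 1410 CPM in the CO hydrogel wound and 1345 CPM in the hydrogel wound, against 2624 CPM in the untreated wound. In these cells the levels under both hydrogels lay close together (log2 ratio 0.07, 0.05 to 0.09, CO hydrogel to hydrogel), and both were lower than in the untreated wound (-0.90 for CO hydrogel and -0.96 for hydrogel). The level in macrophage or monocyte-like cells was 533 CPM in the CO hydrogel wound, against 1213 CPM in the hydrogel wound and 1299 CPM in the untreated wound. There the CO hydrogel wound was the low library, with a log2 ratio of -1.19 (-1.22 to -1.15) to the hydrogel wound and -1.28 (-1.32 to -1.24) to the untreated wound. With the cluster mix matched these were -0.40 and -0.97, both under 2-fold, and the ratio to the hydrogel wound was -0.98 at resolution 2 and -0.99 with each library clustered by itself. Within the macrophage or monocyte-like clusters Ptgs2 stood at 406, 722 and 858 CPM in cluster 6 (Cd163 and Lyve1), 835, 1236 and 1445 CPM in cluster 7 (RT1 class II and Cd74), 225, 374 and 879 CPM in cluster 5 (Trem2 and Gpnmb), and 1939, 2066 and 3654 CPM in cluster 9 (Cxcl11 and Ass1) of CO hydrogel, hydrogel and untreated wounds. Each of these 4 had the CO hydrogel library lowest and the untreated library highest. Neutrophil-like cells held 1599, 2168 and 2635 CPM in CO hydrogel, hydrogel and untreated wounds, none of these values 2-fold apart. Over all genes measured in neutrophil-like cells, the median log2 ratio was 0.70 for CO hydrogel to untreated, so that the Ptgs2 ratio of -0.72 lies further from that median than from 0. With TMM factors, which rescale by a trimmed mean over genes, the Ptgs2 ratios to the untreated wound were -1.86 for CO hydrogel and -1.10 for hydrogel, both past 2-fold. In the Isg15 cluster Ptgs2 stood at 1659, 2237 and 2610 CPM and in the S100a9 and Mmp8 cluster at 1473, 2005 and 2488 CPM, while the Cxcl3 and Ccl3 cluster held 2668 CPM in the hydrogel wound and 2768 CPM in the untreated wound.

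Over the clusters of all classes the order was counted. Of 17 clusters with at least 20 cells in every library and at least 100 Ptgs2 UMIs, the untreated library was highest in 15, the CO hydrogel library was lowest in 14, and 12 had the full order of untreated above hydrogel above CO hydrogel. Clusters were built without the 10 genes, but cells of a library share their source, so the clusters are not replicates. The order was not counted over all genes, so these counts do not show whether it is particular to Ptgs2. Among fibroblast-like clusters, the Tnn and Col12a1 cluster held 370, 547 and 1206 CPM of Ptgs2 in CO hydrogel, hydrogel and untreated wounds, and the Sfrp4 and Has1 cluster held 1776, 2085 and 2693 CPM. The class make-up differed: the Sfrp4 and Has1 cluster was 74.8%, 54.9% and 28.7% of fibroblast-like cells, and the Msln and Dpp4 cluster was 1.08%, 0.46% and 43.7%. That Msln and Dpp4 cluster stood at 3564 CPM in 55 cells of the CO hydrogel wound and 3374 CPM in 611 cells of the untreated wound. The untreated level was not the higher here, but 55 cells are under the 100 set for a ratio, so no order is given.

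Other groups of cells were rich in Ptgs2. An unnamed cluster led by Fcnb, Mal and Ereg (cluster 11) held 3078 CPM in the CO hydrogel wound, 3907 CPM in the hydrogel wound and 4531 CPM in the untreated wound. An unnamed cluster led by Spp1, Il7r, Pf4 and Arg1 (cluster 8) held 1360 CPM in the CO hydrogel wound, 1658 CPM in the hydrogel wound and 3745 CPM in the untreated wound, with log2 ratios to the untreated wound of -1.46 and -1.18. Its 115 cells of the CO hydrogel wound were shallow, at a median of 1372 UMIs against 6907 (hydrogel) and 8269 (untreated). Mast or basophil-like cells held 2515 CPM in 82 cells of the CO hydrogel wound and 1850 CPM in 30 cells of the hydrogel wound, while the untreated wound had 53 UMIs in 6 such cells and is given no level. Endothelial-like and mural-like cells were low in Ptgs2, at 49.2, 104 and 98.2 CPM and at 97.6, 153 and 110 CPM in CO hydrogel, hydrogel and untreated wounds.

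Cells differ in depth, so detection was also read with every cell thinned to 1000 UMIs. At that depth a Ptgs2 UMI was found in 49.1%, 49.8% and 68.9% of fibroblast-like cells of CO hydrogel, hydrogel and untreated wounds, where unthinned shares were 76.0%, 79.3% and 88.9% at median depths of 9253, 13531 and 16920 UMIs. Macrophage or monocyte-like cells had thinned shares of 23.8%, 42.9% and 48.7%, and unthinned shares of 45.7%, 69.8% and 71.1%. In T or NK-like cells, taken as the background that free RNA gives, thinned shares were 5.65%, 7.80% and 7.69%, with unthinned shares of 12.5%, 22.4% and 25.7% at median depths of 2327, 3824 and 4509 UMIs. The Ptgs2 level in T or NK-like cells itself was 55.7, 73.0 and 187 CPM (log2 -1.75 and -1.36 to the untreated wound). Macrophage or monocyte-like and neutrophil-like cells ran in the same order, while fibroblast-like, mural-like and endothelial-like cells did not. The untreated level came from 108 UMIs, of which the top 10% of T or NK-like cells held 84.3%. For hydrogel to untreated the ratio was -0.70 with the mean of per-cell CPM and -0.87 with no doublets removed. The part of free RNA in the levels of the other classes was not tested. The shares in fibroblast-like and macrophage or monocyte-like cells thus lay above that background in every library. Within a class the RNA was unevenly held: among macrophage or monocyte-like cells, the top 10% by Ptgs2 UMIs held 66.2%, 48.8% and 50.3% of the class total in the 3 wounds, and among fibroblast-like cells the top 10% held 43.1%, 43.1% and 38.7%.

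Ptgs2 is also an immediate early gene that tissue dissociation can raise, and the tissue was incubated at 37 °C for about 1 hour. A list of 14 handling genes, 13 of them measured, summed to 16187, 19363 and 11817 CPM in fibroblast-like cells of CO hydrogel, hydrogel and untreated wounds, lowest where Ptgs2 was highest. The sums were 10516, 9888 and 11784 CPM in macrophage or monocyte-like cells, and in neutrophil-like cells 12367, 17182 and 19590 CPM, there in the order of Ptgs2. The median mitochondrial share runs in the opposite order, highest in the CO hydrogel library. The part of handling and RNA quality in the Ptgs2 levels was not tested.

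**Figure D2:**
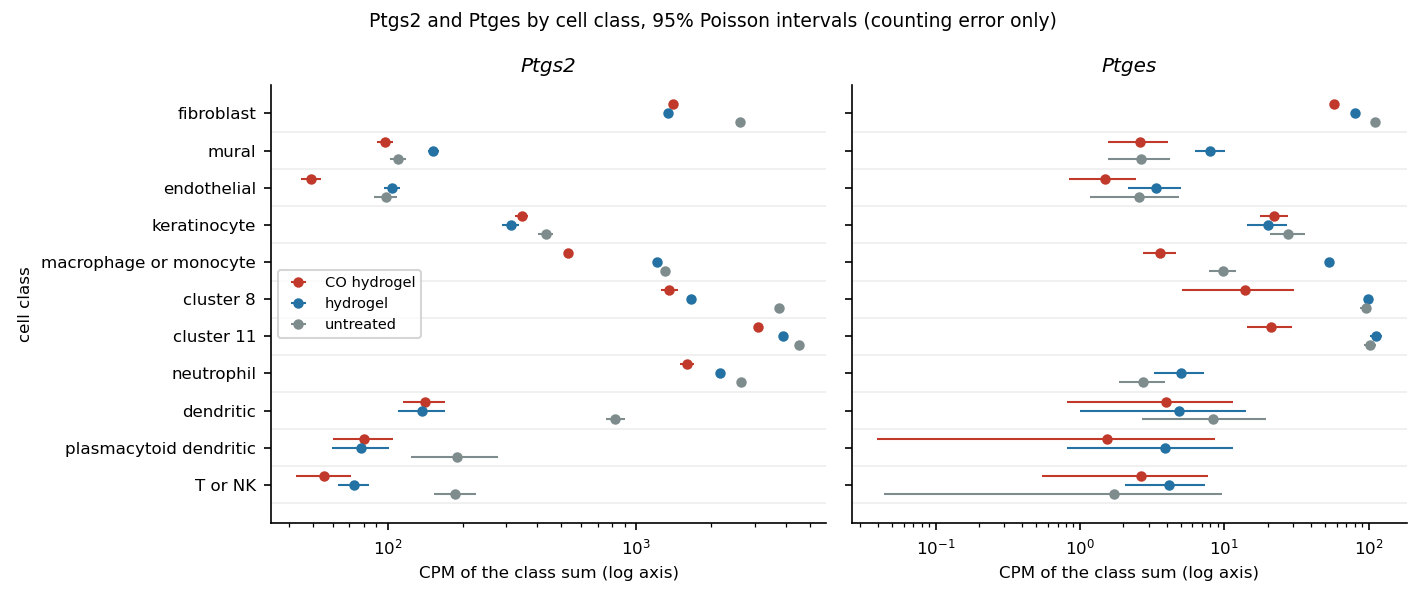
CPM of Ptgs2 and Ptges on log axes by cell class (rows), with CO hydrogel, hydrogel and untreated libraries as separate points and 95% Poisson intervals. Fibroblast-like Ptgs2 stood at 1410, 1345 and 2624 CPM, and macrophage or monocyte-like Ptges at 3.61, 53.2 and 9.78 CPM in CO hydrogel, hydrogel and untreated wounds.

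The promoter sequences of Ptgs2 and of Ptges, the microsomal prostaglandin E synthase that works downstream of it, are shown because both genes are known to be induced together and were lower in the CO hydrogel wound in several classes. Each run holds the 250 bases before the transcription start, on the strand of the gene, from RefSeq assembly GRCr8; Ptgs2 lies at chr13:64713813-64714062 on the plus strand and Ptges at chr3:34586988-34587237 on the minus strand. Capitals mark matches of 3 motifs searched on both strands, the GC box GGGCGG, the E box CACGTG and the C/EBP-type TTNNGNAA.
Ptgs2: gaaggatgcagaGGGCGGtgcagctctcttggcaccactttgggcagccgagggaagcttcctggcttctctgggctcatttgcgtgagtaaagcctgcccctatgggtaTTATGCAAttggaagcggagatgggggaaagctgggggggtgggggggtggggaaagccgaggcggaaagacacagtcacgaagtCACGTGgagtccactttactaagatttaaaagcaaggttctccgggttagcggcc
Ptges: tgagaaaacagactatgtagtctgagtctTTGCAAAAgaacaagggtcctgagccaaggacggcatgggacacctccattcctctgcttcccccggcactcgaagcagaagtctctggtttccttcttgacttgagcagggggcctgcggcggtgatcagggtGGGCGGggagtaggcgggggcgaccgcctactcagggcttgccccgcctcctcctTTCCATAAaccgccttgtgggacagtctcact
The Ptgs2 window had 1 GC box, 1 E box 49 bases before the start and 1 C/EBP-type match 132 bases before it. The Ptges window had 1 GC box 81 bases before the start and 2 C/EBP-type matches, the nearer 24 bases before it. An AP-1-type motif, TGANTCA, had no match in either window. Among 27457 RefSeq promoters of this length, 32.4% held the GC box, 5.79% the E box, 36.8% the C/EBP-type motif and 6.36% the AP-1-type motif. A match is a description of letters only. Of the 10 genes, 8 had a promoter in the table, and GC content was 57.2% for Ptgs2 and 58.8% for Ptges.

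Ptgs1, the cyclooxygenase usually present without induction, had 29.0%, 12.1% and 57.7% of its UMIs in fibroblast-like cells of CO hydrogel, hydrogel and untreated wounds. In those cells it stood at 6.81 CPM (332 UMIs) in the CO hydrogel wound and 5.99 CPM (142 UMIs) in the hydrogel wound, against 35.2 CPM (881 UMIs) in the untreated wound. This made it 5.16-fold lower in the CO hydrogel wound and 5.87-fold lower in the hydrogel wound than in the untreated wound (log2 ratios -2.37, -2.55 to -2.18, and -2.55, -2.82 to -2.30). The Msln and Dpp4 cluster, nearly all of it untreated cells, held 684 of the 881 untreated UMIs at 54.2 CPM. In the CO hydrogel wound 55 cells of that cluster had 0 UMIs of Ptgs1. Those 55 cells are too few for a ratio, so the 0 is not read as absence and no order is given. In the other fibroblast-like clusters the gap to the untreated wound was smaller than in the whole class. The Tnn and Col12a1 cluster held 13.9, 7.04 and 19.3 CPM in CO hydrogel, hydrogel and untreated wounds. The Sfrp4 and Has1 cluster held 4.29, 4.71 and 11.4 CPM in the same order of wounds. In mural-like cells Ptgs1 stood at 22.5 and 19.4 CPM under CO hydrogel and hydrogel, against 41.6 CPM in the untreated wound (log2 -0.89 and -1.10). It was level in macrophage or monocyte-like cells, at 18.4, 18.1 and 16.7 CPM, and endothelial-like (20.8, 24.5 and 19.7 CPM) and keratinocyte-like cells (20.9, 26.5 and 19.9 CPM) also held it at values less than 2-fold apart. T or NK-like cells had 2, 5 and 1 UMIs of it, and mast or basophil-like cells had 9 UMIs in the CO hydrogel wound (45.2 CPM, 20.7 to 85.8) and 5 in the hydrogel wound (63.8 CPM, 20.7 to 149).

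Ptges was chiefly a fibroblast gene in the CO hydrogel wound and in the untreated wound, and a gene of fibroblast-like and myeloid cells in the hydrogel wound. Fibroblast-like cells held 92.3%, 40.1% and 70.6% of its UMIs in CO hydrogel, hydrogel and untreated wounds, and macrophage or monocyte-like cells 1.94%, 31.2% and 2.11%. In fibroblast-like cells it stood at 57.6 CPM in the CO hydrogel wound, 80.5 CPM in the hydrogel wound and 111 CPM in the untreated wound, log2 ratios of -0.48 for CO hydrogel to hydrogel, -0.94 for CO hydrogel to untreated and -0.46 for hydrogel to untreated. None of these reached 2-fold, and the order was not that of the clusters. The Tnn and Col12a1 cluster held 37.5, 34.7 and 33.4 CPM of Ptges in CO hydrogel, hydrogel and untreated wounds, and the Sfrp4 and Has1 cluster 64.6, 124 and 98.3 CPM. The Msln and Dpp4 cluster, found mainly in the untreated wound, held 101 CPM (8 UMIs) under CO hydrogel and 158 CPM untreated. Over 8 clusters of all classes with enough Ptges UMIs, the hydrogel library was highest in 6 and the CO hydrogel library lowest in 6. This too was not counted over all genes. At 1000 UMIs a cell, 5.24%, 7.04% and 7.77% of fibroblast-like cells had a Ptges UMI (30.4%, 38.7% and 45.9% unthinned), against 0.246%, 0.376% and 0.772% of endothelial-like cells (0.963%, 2.10% and 2.16% unthinned), whose median depths were 3118, 3097.5 and 5407 UMIs.

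Myeloid cells differed more. Macrophage or monocyte-like Ptges stood at 3.61 CPM (59 UMIs) in the CO hydrogel wound, against 53.2 CPM (1483 UMIs) in the hydrogel wound and 9.78 CPM (83 UMIs) in the untreated wound. The CO hydrogel level was 14.7-fold below the hydrogel level (log2 -3.88, -4.28 to -3.51) and 2.71-fold below the untreated level (-1.44, -1.95 to -0.94). Most of the hydrogel signal came from 1 cluster, led by Cxcl11 and Ass1 (cluster 9), whose marker score lay close to the limit for a name. It held 1348 of those 1483 UMIs and made up 2.77%, 38.9% and 5.58% of the class in CO hydrogel, hydrogel and untreated wounds. Inside cluster 9 Ptges stood at 48.3 CPM in 79 cells of the CO hydrogel wound, 121 CPM in 1248 cells of the hydrogel wound and 67.3 CPM in 59 cells of the untreated wound. With the cluster mix matched, the log2 ratio was -1.40 for CO hydrogel to hydrogel, -1.09 for CO hydrogel to untreated and 0.63 for hydrogel to untreated, where the unmatched value was 2.44.

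The unnamed myeloid clusters showed the same low level under CO hydrogel. Cluster 11 held 21.0 CPM of Ptges in the CO hydrogel wound, against 112 CPM in the hydrogel wound and 103 CPM in the untreated wound (log2 -2.41 and -2.29). Ptges was the 1 of 5 genes at least 2-fold apart there in each of those pairs, against 2.66% and 7.74% of all genes, and for hydrogel to untreated none of the 5 was (5.64%). Cluster 8 held 13.9 CPM in the CO hydrogel wound, against 99.8 CPM in the hydrogel wound and 95.7 CPM in the untreated wound (log2 -2.85 and -2.79), but from 6 UMIs in 115 cells on the CO hydrogel side. Of those 115 cells 39 had under 1000 UMIs, and the part of depth in the cluster 8 ratios was not tested. In that cluster 2 of 5, 3 of 5 and 2 of 6 of the genes were at least 2-fold apart for CO hydrogel to hydrogel, CO hydrogel to untreated and hydrogel to untreated, against 7.26%, 12.5% and 8.86% of all genes. In both clusters the hydrogel and untreated levels lay within 0.13 of each other on the log2 scale. In neutrophil-like cells Ptges had 0, 26 and 32 UMIs, and the 0 in the CO hydrogel wound allows up to 4.85 CPM.

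Detection of Ptges was compared between cells with and without a Ptgs2 UMI. At 1000 UMIs a cell, in fibroblast-like cells Ptges was found in 6.13% of cells with a Ptgs2 UMI and 4.38% without one in the CO hydrogel wound, 9.62% and 4.48% in the hydrogel wound, and 9.75% and 3.39% in the untreated wound. In the CO hydrogel wound the intervals of these shares overlap (5.21 to 7.15 and 3.62 to 5.25). They do not in the hydrogel wound (7.71 to 11.8 and 3.19 to 6.09) or the untreated wound (7.90 to 11.9 and 1.87 to 5.62). For macrophage or monocyte-like cells of the hydrogel wound the shares were 8.27% and 1.16%, but they were 1.04% and 0.787% in the untreated wound, from 5 and 4 cells. In untreated neutrophil-like cells they were 0.217% (0.0994 to 0.412) and 0.308% (0.0840 to 0.787). In cluster 15 of the CO hydrogel wound they were 1.28% (0.0325 to 6.94) and 4.26% (1.17 to 10.5). Only 13 and 5 cells there had a Ptges UMI and the intervals overlap, so no direction is given. In cluster 11 the shares were 2.33% and 0.592%, 9.22% and 3.70%, and 7.92% and 4.27% in CO hydrogel, hydrogel and untreated wounds. In cluster 8 they were 9.17% and 5.83% (hydrogel) and 10.4% and 3.18% (untreated). Of the cluster 11 and cluster 8 pairs, only the untreated cluster 8 intervals do not overlap. Most cells with a Ptgs2 UMI had no Ptges UMI at this depth in the classes given. Cells with and without a Ptgs2 UMI also differ in cluster, and the part of cluster in these shares was not tested.

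Hpgds, the haematopoietic prostaglandin D synthase, was a mast cell gene by level: mast or basophil-like cells held 502 CPM (100 UMIs in 82 cells) in the CO hydrogel wound and 421 CPM (33 UMIs in 30 cells) in the hydrogel wound, with 10 UMIs in 6 cells of the untreated wound. By number, though, macrophage or monocyte-like cells held 48.0%, 32.6% and 49.2% of its UMIs in CO hydrogel, hydrogel and untreated wounds. In those cells it stood at 11.01 CPM (180 UMIs) in the CO hydrogel wound, against 1.61 CPM (45 UMIs) in the hydrogel wound and 3.54 CPM (30 UMIs) in the untreated wound, 6.82-fold and 3.11-fold higher under CO hydrogel. Summed mast or basophil markers in the same cells were 11.7, 19.3 and 2.24 CPM, higher under CO hydrogel than in the untreated wound and lower than in the hydrogel wound, and their part in the result was not tested. The cluster led by Cd163, F13a1 and Lyve1 (cluster 6) held 142 of the 180 UMIs in the CO hydrogel wound, 32 of 45 in the hydrogel wound and 6 of 30 in the untreated wound, at 22.5 CPM in the CO hydrogel wound, 13.0 CPM in the hydrogel wound and 2.06 CPM in the untreated wound. Within cluster 6 the log2 ratio was 0.79 (0.23 to 1.39) to the hydrogel wound and 3.45 (2.29 to 4.92) to the untreated wound. For the class with the cluster mix matched, CO hydrogel to hydrogel moved from 2.77 to 0.97, under 2-fold. CO hydrogel to untreated, at 1.64 unmatched, was then 1.89. Keratinocyte-like cells also held Hpgds, with 61, 45 and 10 UMIs at 17.2, 22.1 and 5.24 CPM.

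Ptger2, a receptor for prostaglandin E2 that raises cyclic AMP, was highest in neutrophil-like cells among the classes given a level. It stood at 55.0 CPM (34 UMIs) in the CO hydrogel wound and 66.8 CPM (349 UMIs) in the hydrogel wound, against 140 CPM (1642 UMIs) in the untreated wound. The CO hydrogel and hydrogel wounds did not differ beyond counting error (log2 -0.28, -0.83 to 0.23), and both were lower than the untreated wound (-1.35, -1.89 to -0.86, and -1.07, -1.24 to -0.90). Ptger2 was the 1 of 4 genes at least 2-fold lower in each of those pairs, against 4.66% and 2.4% of all genes of the class. At 1000 UMIs, 5.12%, 5.53% and 12.2% of neutrophil-like cells had a UMI (7.21%, 10.7% and 21.7% unthinned), against 0.161%, 0.296% and 0.226% of fibroblast-like cells (1.06%, 2.82% and 5.37% unthinned). Median depths were 1313.5, 1808.5 and 1950 UMIs in neutrophil-like cells. The clusters differed: the Isg15 cluster was level at 61.4, 68.6 and 65.8 CPM in CO hydrogel, hydrogel and untreated wounds, while the S100a9 and Mmp8 cluster held 49.0 and 62.4 CPM under CO hydrogel and hydrogel, against 147 CPM untreated. The Cxcl3 and Ccl3 cluster, 2.40%, 3.79% and 49.1% of neutrophil-like cells, held 81.3 CPM in the hydrogel wound and 149 CPM in the untreated wound. Matching the cluster mix gave a log2 ratio of -0.79 for hydrogel to untreated.

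Outside neutrophil-like cells Ptger2 was found in macrophage or monocyte-like cells at 9.97, 15.3 and 14.9 CPM, and cluster 11 held 28.1, 25.8 and 44.1 CPM, in CO hydrogel, hydrogel and untreated wounds. In fibroblast-like cells it was low, at 1.13, 2.32 and 3.91 CPM (55, 55 and 98 UMIs), and 2 of 6 genes there were at least 2-fold lower in the CO hydrogel than the hydrogel wound, Ptger2 and Alox5ap, against 1.77% of all genes. The Ptger2 ratio (log2 -1.04) was under 2-fold with the cluster mix matched (-0.77), with the mean of per-cell CPM (-0.98) and with a stricter cell filter (-0.98). Both were highest in neutrophil-like cells, and the summed neutrophil markers in fibroblast-like cells ran the same way, at 153, 220 and 335 CPM, with Cxcr2 at 0 in the CO hydrogel wound. Their part in these 2 values was not tested. Ptger4, another prostaglandin E2 receptor that raises cyclic AMP, had 331 UMIs in all and reached 100 UMIs in no class. Its levels in T or NK-like cells were 5.30, 7.90 and 6.94 CPM from 6, 21 and 4 UMIs, and the 3 intervals overlap (1.95 to 11.5, 4.89 to 12.1 and 1.89 to 17.8 CPM).

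**Figure D3:**
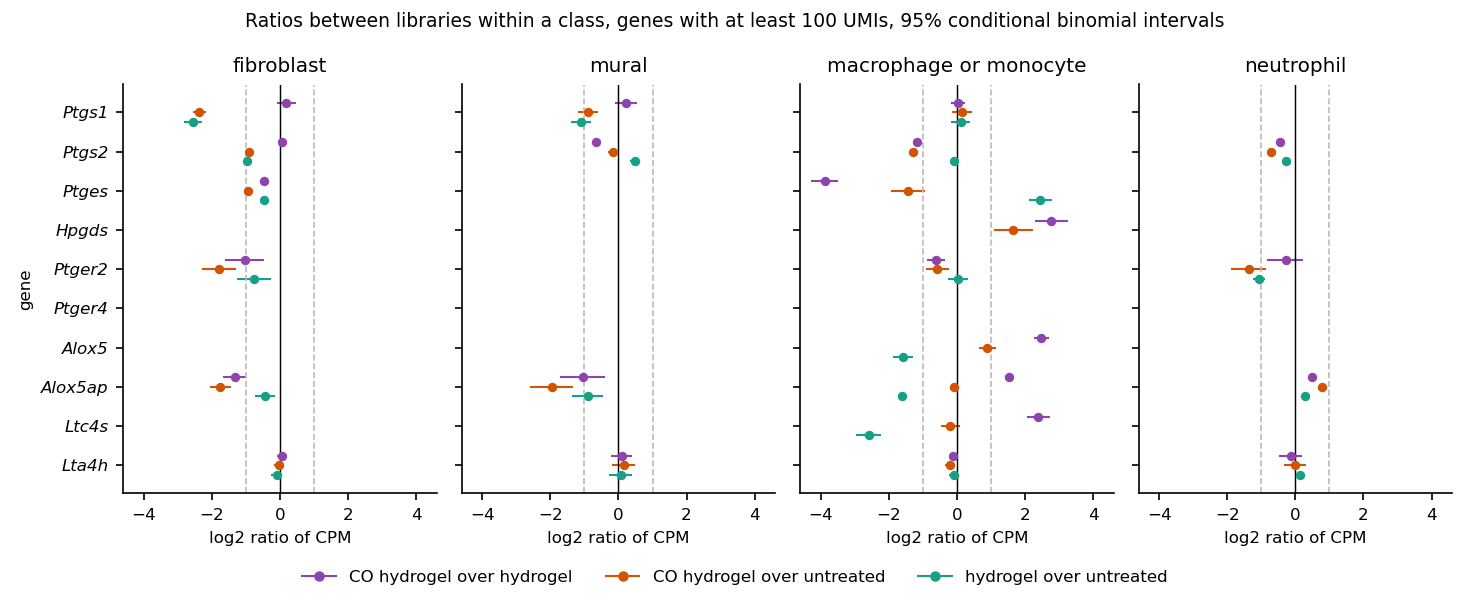
Log2 ratio of CPM between libraries for each gene (rows) in fibroblast-like, mural-like, macrophage or monocyte-like and neutrophil-like cells, 1 symbol per pair of libraries, with 95% conditional binomial intervals; genes under 100 UMIs are left out. For CO hydrogel to hydrogel in macrophage or monocyte-like cells, Ptges lies at -3.88 and Hpgds, Alox5 and Ltc4s lie between 2.39 and 2.77.

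Alox5, 5-lipoxygenase, was found mainly in macrophage or monocyte-like cells, which held 92.2%, 77.4% and 69.4% of its UMIs in CO hydrogel, hydrogel and untreated wounds. It stood there at 41.2 CPM (674 UMIs) in the CO hydrogel wound, against 7.39 CPM (206 UMIs) in the hydrogel wound and 22.2 CPM (188 UMIs) in the untreated wound. The CO hydrogel level was 5.58-fold above the hydrogel level (log2 2.48, 2.25 to 2.71) and 1.86-fold above the untreated level (0.90, 0.66 to 1.14). Cluster 6 held most of it, at 80.8, 65.9 and 42.2 CPM, and was 42.7%, 11.8% and 29.7% of the class. Within cluster 6 CO hydrogel to hydrogel had a log2 ratio of 0.29 (0.03 to 0.56), and in the class II cluster led by RT1-Db1 and Cd74 (cluster 7), with 26.3, 6.18 and 12.5 CPM, it was 2.09 (1.49 to 2.74). With the cluster mix matched, the class value was 0.61 for CO hydrogel to hydrogel, and for hydrogel to untreated it turned to 0.0573 where the unmatched value was -1.58. In neutrophil-like cells Alox5 had 11, 46 and 46 UMIs, at 17.8, 8.81 and 3.94 CPM. Mast or basophil-like cells held 9 UMIs in the CO hydrogel wound and 4 in the hydrogel wound, at 45.2 and 51.0 CPM.

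Alox5ap, the 5-lipoxygenase activating protein, was highest in neutrophil-like cells, at 2070 CPM in the CO hydrogel wound, 1478 CPM in the hydrogel wound and 1205 CPM in the untreated wound. The log2 ratios were 0.49 for CO hydrogel to hydrogel, 0.78 for CO hydrogel to untreated and 0.30 for hydrogel to untreated. The ratios to the untreated wound turned to -0.36 and -0.53 with TMM factors, and over all genes of the class their medians were 0.70 in both pairs, so no direction relative to other genes is given. The Isg15 cluster held 1925, 1484 and 1978 CPM in CO hydrogel, hydrogel and untreated wounds, the S100a9 and Mmp8 cluster 2235, 1524 and 1149 CPM, and the Cxcl3 and Ccl3 cluster 975 CPM in the hydrogel wound and 1108 CPM in the untreated wound, so the order differed between clusters. At 1000 UMIs, 80.3%, 64.8% and 55.0% of neutrophil-like cells had a UMI of it (82.5%, 77.4% and 70.0% unthinned), against 0.361%, 0.532% and 1.06% of fibroblast-like cells (2.35%, 6.27% and 8.95% unthinned). Neutrophil-like cells were few in the CO hydrogel wound, and held 18.8%, 65.0% and 76.0% of its UMIs in CO hydrogel, hydrogel and untreated wounds, against 66.4%, 22.5% and 13.4% in macrophage or monocyte-like cells.

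Summed over all kept cells, Alox5ap was lowest in the CO hydrogel wound, at 72.4 CPM, against 129 CPM in the hydrogel wound and 269 CPM in the untreated wound. With every class given its untreated share of UMIs the order turned, to 412, 284 and 270 CPM. That mix gives neutrophil-like cells, where Alox5ap was highest, 17.0% of untreated UMIs. Their log2 ratios to the untreated wound, 0.78 for CO hydrogel and 0.30 for hydrogel, turned to -0.36 and -0.53 with TMM factors. The turned order is thus given no direction relative to other genes. Ptger2 stood at 3.43, 12.3 and 32.4 CPM over all cells and at 13.3, 17.5 and 32.6 CPM at the untreated mix. Ptgs2 kept its order, at 932, 1171 and 2176 CPM over all cells and 1173, 1412 and 2185 CPM at the untreated mix.

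**Figure D4:**
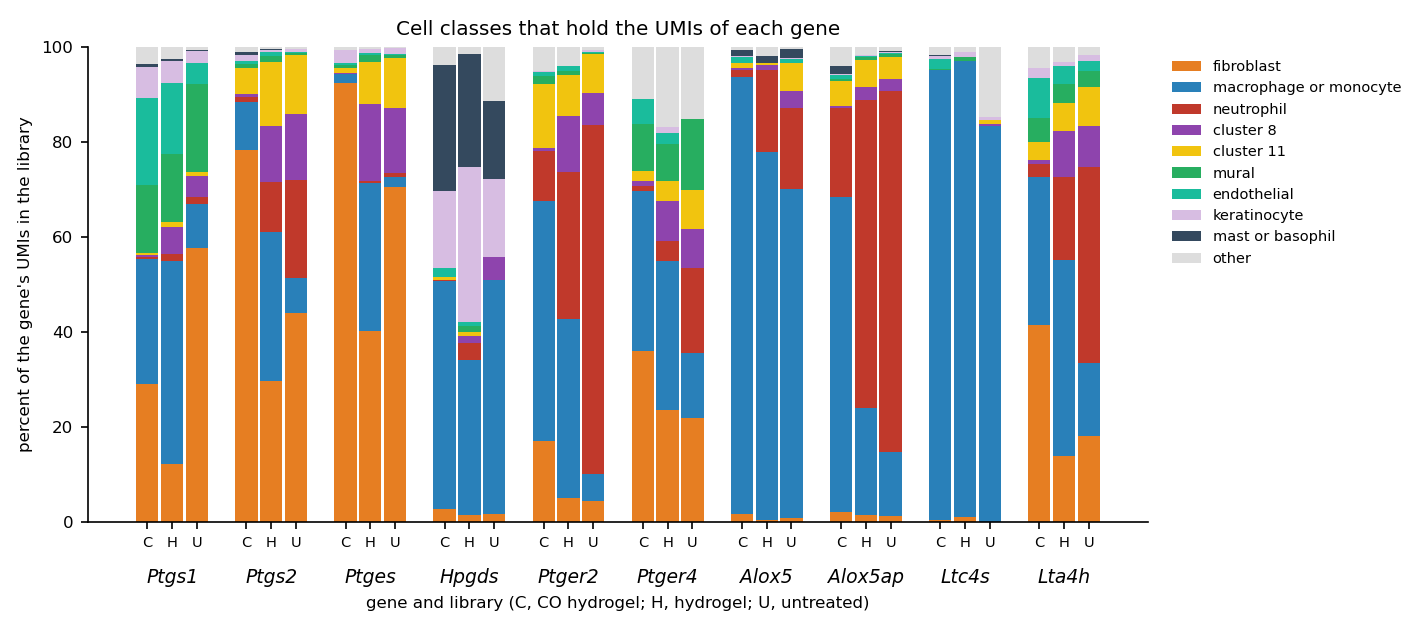
Percent of each gene's UMIs held by each cell class (stacked bars to 100%), for the CO hydrogel, hydrogel and untreated libraries of each gene. Fibroblast-like cells held 78.4%, 29.6% and 44.0% of Ptgs2 UMIs, and neutrophil-like cells 18.8%, 65.0% and 76.0% of Alox5ap UMIs.

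The Alox5ap level in macrophage or monocyte-like cells was 277 CPM in the CO hydrogel wound, against 95.7 CPM in the hydrogel wound and 293 CPM in the untreated wound. Here the hydrogel wound was the low library (log2 1.53, 1.46 to 1.60, for CO hydrogel to hydrogel, and -1.62 for hydrogel to untreated), while CO hydrogel to untreated lay at -0.08. Cluster 6 held 419, 278 and 484 CPM, cluster 7 held 262, 145 and 202 CPM and cluster 9 held 182, 51.6 and 125 CPM, so the hydrogel library was lowest in each of these 3. In cluster 5, 17.4%, 30.8% and 8.70% of the class, it held 86.1, 78.0 and 154 CPM, where CO hydrogel and hydrogel did not differ beyond counting error (log2 0.14, -0.04 to 0.32). Matching the cluster mix moved the class ratio of CO hydrogel to hydrogel, as log2, to 0.74. In the CO hydrogel wound Alox5ap was found, at 1000 UMIs, in 45.6% of macrophage or monocyte-like cells with an Alox5 UMI and 23.3% of those without one.

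Alox5ap was low in stromal cells, at 2.79, 7.00 and 9.42 CPM in fibroblast-like cells and 3.97, 8.15 and 15.3 CPM in mural-like cells of CO hydrogel, hydrogel and untreated wounds. For CO hydrogel to hydrogel the log2 ratios were -1.33 in fibroblast-like and -1.04 in mural-like cells, and mural-like cells had no other gene of the 4 tested at least 2-fold apart in that pair, against 1.48% of all genes. Summed neutrophil markers ran in the same order, at 333, 381 and 633 CPM in mural-like cells. With no barcode removed as a doublet, the ratios were -0.11 and -0.38. The part of neutrophil RNA in these values was not tested.

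Ltc4s, the synthase of leukotriene C4, was found in macrophage or monocyte-like cells, which held 94.8%, 96.0% and 83.3% of its UMIs in CO hydrogel, hydrogel and untreated wounds. It stood there at 17.9 CPM (292 UMIs) in the CO hydrogel wound, against 3.41 CPM (95 UMIs) in the hydrogel wound and 20.5 CPM (174 UMIs) in the untreated wound. The log2 ratios were 2.39 (2.05 to 2.74) for CO hydrogel to hydrogel, -0.20 (-0.47 to 0.08) for CO hydrogel to untreated and -2.59 (-2.97 to -2.22) for hydrogel to untreated. Within cluster 6, which held 259 of 292, 83 of 95 and 150 of 174 of these UMIs, the levels were 41.1, 33.8 and 51.5 CPM, with a log2 ratio of 0.28 (-0.08 to 0.66) for CO hydrogel to hydrogel. The class value for CO hydrogel to hydrogel thus moved to 0.39 with the cluster mix matched, and it turned to -0.75 when each library was clustered by itself. In that setting the value for CO hydrogel to untreated was -2.70, and for hydrogel to untreated it was -1.95, against -0.73 with the cluster mix matched. Dendritic-like cells held 4, 0 and 30 UMIs, at 5.28 CPM, a limit of 4.85 CPM for the 0, and 49.9 CPM. Neutrophil-like cells had 0 UMIs in all 3 libraries, which allows up to 4.85, 0.575 and 0.257 CPM.

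**Figure D5:**
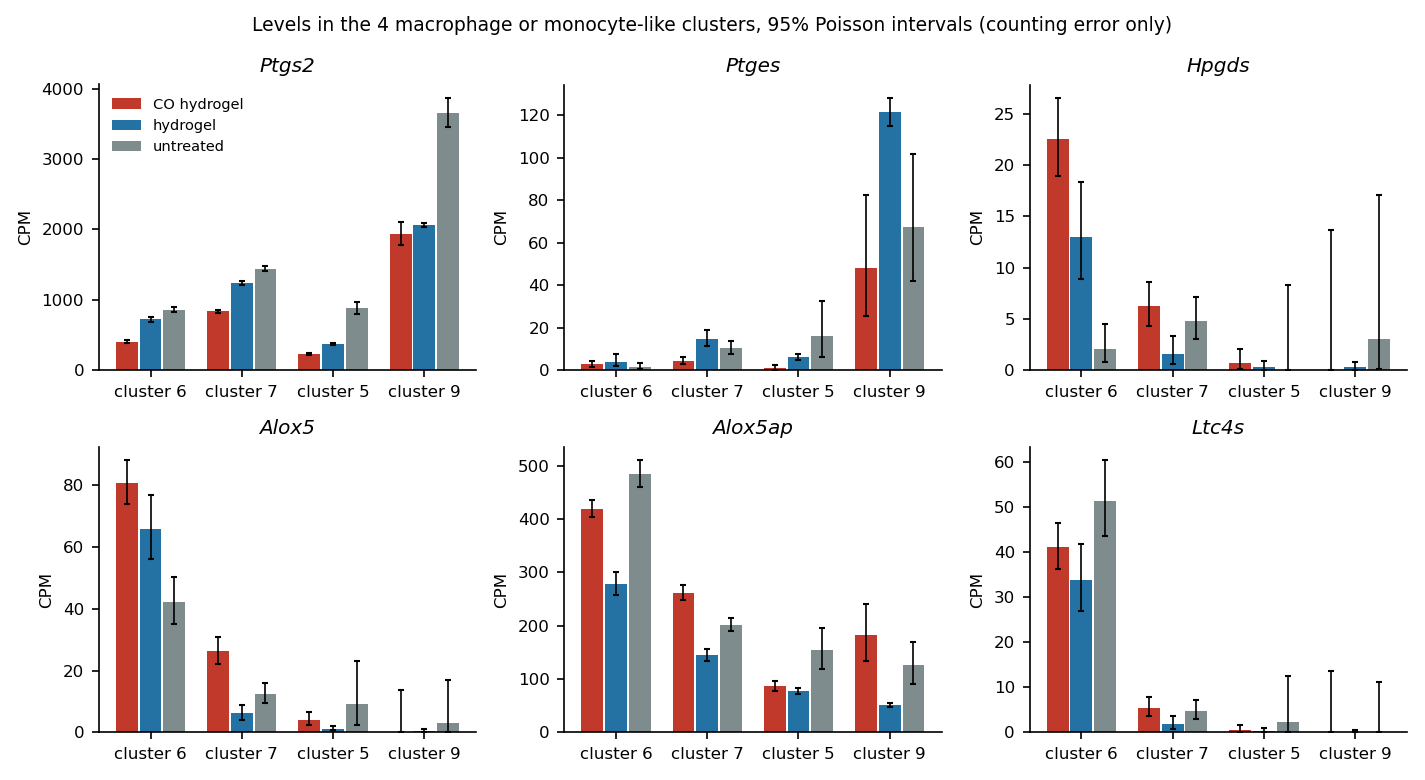
CPM of 6 genes in the 4 macrophage or monocyte-like clusters, with CO hydrogel, hydrogel and untreated libraries side by side and 95% Poisson intervals. Among the 4 clusters of the CO hydrogel wound, Ltc4s, Alox5 and Hpgds were highest in cluster 6 (41.1, 80.8 and 22.5 CPM). Ltc4s in cluster 6 was higher in the untreated wound, at 51.5 CPM. Ptges was highest in cluster 9, where the hydrogel wound reached 121 CPM.

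Lta4h, the hydrolase that makes leukotriene B4, had no class ratio of at least 2-fold among those with 100 or more UMIs. In neutrophil-like cells it stood at 136, 149 and 136 CPM, in macrophage or monocyte-like cells at 60.3, 65.4 and 69.8 CPM and in fibroblast-like cells at 26.8, 25.8 and 27.5 CPM in CO hydrogel, hydrogel and untreated wounds. In neutrophil-like cells TMM factors moved the log2 ratios of Lta4h to the untreated wound to -1.14 for CO hydrogel, past 2-fold, and to -0.69 for hydrogel, where the unscaled values were near 0 and 0.13. Over all cells it stood at 33.5, 48.1 and 55.9 CPM, and at the untreated class mix at 55.4, 56.3 and 56.1 CPM.

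Of 51 other genes of the pathway listed for reading beside the 10, 48 had a row under their symbol. In fibroblast-like cells of the CO hydrogel wound relative to the untreated wound, 28 could be read, 4 were at least 2-fold higher and 2 lower, against 6.13% higher and 3.51% lower of all genes. Pla2g2a, a secreted phospholipase, stood at 20.3 CPM in the CO hydrogel wound and 189 CPM in the untreated wound, and it is a leading gene of the Msln and Dpp4 cluster. Hpgd, which inactivates prostaglandins, stood at 14.9 CPM against 5.07 CPM, and the others higher were Ptger3, Dpep1 and Cmklr1. Il1b, the cytokine that induces Ptgs2, stood at 27.5, 171 and 267 CPM in fibroblast-like cells of CO hydrogel, hydrogel and untreated wounds, in the order of their summed neutrophil markers, and its part in the Ptgs2 levels was not tested.

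Of the list, 25 genes could be read in macrophage or monocyte-like cells for CO hydrogel to hydrogel, 1 was at least 2-fold higher and 2 were lower, against 4.56% higher and 2.39% lower of all genes. Ptgir, the prostacyclin receptor, stood at 22.3 CPM in the CO hydrogel wound and 10.8 CPM in the hydrogel wound. Mgst2, a microsomal enzyme that can make leukotriene C4, stood at 72.1 CPM against 151 CPM, and the phospholipase Plaat3 stood at 55.5 CPM against 128 CPM. In neutrophil-like cells of the CO hydrogel wound relative to the untreated wound, 15 could be read, 1 was higher and 3 lower, against 34.5% higher and 4.66% lower of all genes. Il1a there stood at 19.4 CPM in the CO hydrogel wound and 197 CPM in the untreated wound.

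The genes whose level over 38 combinations of class and library was most like a member's were read by Pearson correlation, as a description without a test, since combinations of 1 library share its depth and free RNA. Ptges was most like Arg1 (r = 0.88) and Ereg, leading genes of the unnamed clusters 8 and 11. Ptger2 was most like Trem1 (0.91), Clec4e and Ccl3, and Alox5ap most like Osm (0.88), Tfip11 and Cd200r1. Hpgds was most like the mast cell proteases Tpsb2 (0.76), Tpsab1 and Cpa3. Ptgs2 was most like Emilin2 (0.85), Fcgr2a and Lpcat2, Ptgs1 most like Dbndd2 (0.85), Alox5 most like Anxa11 (0.82), Ltc4s most like Cd207 (0.75) and Lta4h most like Clec5a (0.86).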

How the data were processed

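The authors deposited raw UMI counts for each gene and barcode of 10x Genomics 3' libraries. Cell Ranger 6.0.1 is the version per the file headers, whereas Cell Ranger 7.0.0 stands in the submitters' processing notes, which also list Seurat 4.2.0, DESeq 1.38.0 and genome build rn6. How the authors mapped reads that overlap other genes is not given in the sources used here. The 10 genes, the pathway list and the comparisons were chosen with earlier results of these data known, so no list is independent evidence.

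A barcode passed with 500 or more UMIs, 300 or more genes and no more than 20% mitochondrial UMIs. Doublets were taken as the top Scrublet scores at 0.8% per 1000 barcodes, which removed 12.3%, 12.4% and 10.3% of CO hydrogel, hydrogel and untreated barcodes. By its own threshold Scrublet would have marked 571, 437 and 0. This left 36473 of 43701 barcodes. After scaling to 10000 per cell and a log transform, 2000 variable genes, without the 10 genes and the pathway list, 30 principal components and 20 neighbours were used for Leiden clustering at resolution 1, which found 22 clusters. Clusters were named from markers of 18 classes by a score whose conditions (at least 0.2, and at least 3 markers each in 20% of cells) were set after the data were seen. In all, 10 classes were named, and clusters 2, 8, 11 and 15 were left unnamed.

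UMIs were summed per class and library. Levels were given for at least 20 cells with exact Poisson intervals, ratios for at least 100 UMIs over both libraries and at least 100 cells in each with exact conditional binomial intervals, and shares with exact Clopper-Pearson bounds in the tables, all at 95%. A sum of 0 was given the limit that 3 counts of the library's class total allow. Thinning drew 1000 UMIs once from each of the 34444 cells that had as many. The class mix was held at the untreated shares over 11 classes with at least 20 cells in every library, which hold 99.5% of untreated UMIs. The ratio step was checked on simulated counts. The named genes were all 10 members, listed pathway genes at least 2-fold apart, and the 3 genes most like each member, of which some are printed. Since each group is 1 library, nothing was tested between groups. Software was scanpy 1.11.5 (clustering), scipy 1.17.1 (intervals), pandas 2.3.3, numpy 2.4.6, igraph 0.11.9 and matplotlib 3.10.9 under Python 3.11.15. TMM factors, an alternative scaling, came from edgeR 4.0.16 under R 4.3.3.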

Additional observations from a re-analysis of the deposited data

Results flagged for a closer look

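Alox5ap ran in opposite directions in different cell classes of the same pair of wounds. For the CO hydrogel wound relative to the hydrogel wound its log2 ratio was 1.53 in macrophage or monocyte-like cells, -1.33 in fibroblast-like cells and -1.04 in mural-like cells. With 1 library per group the difference between classes was not tested. The stromal values rest on 136 and 166 UMIs in fibroblast-like cells and 29 and 71 UMIs in mural-like cells of CO hydrogel and hydrogel wounds.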

How the results depend on the processing

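No paired analysis was possible because each group has 1 library and no result comes from a test. The main counts of gene and class values at least 2-fold apart were 10 for CO hydrogel to hydrogel, 10 for CO hydrogel to untreated and 8 for hydrogel to untreated. A minimum of 20 UMIs gave 16 for CO hydrogel to untreated and 16 for hydrogel to untreated, and no minimum with 0.5 counts added gave 33, 30 and 27, since more genes of few counts were read. Matching the cluster mix gave 3 for CO hydrogel to hydrogel and 4 for hydrogel to untreated, clustering each library by itself gave 6 for CO hydrogel to hydrogel, and leaving out the 821 barcodes found in more than 1 library, chosen after seeing the data, gave 5 for hydrogel to untreated. Of the ratios at least 2-fold apart as reported, 2 turned sign under an alternative, both in macrophage or monocyte-like cells: Ltc4s, CO hydrogel to hydrogel, to -0.75 with each library clustered by itself, and Alox5, hydrogel to untreated, to 0.0573 with the cluster mix matched. Among the 26 ratios of that class, 10 others, under 2-fold as reported, also turned sign under at least 1 alternative. So did 5 of 11 ratios in endothelial-like, 5 of 18 in fibroblast-like and 5 of 12 in neutrophil-like cells. The same held for 4 of 10 in keratinocyte-like, 2 of 12 in mural-like and 1 of 1 in plasmacytoid dendritic-like cells, all under 2-fold as reported. The cause of these moves was not tested. Of 93 ratios, 28 were at least 2-fold apart as reported. Of these 28, 28 stayed so with TMM factors, 27 with the eicosanoid genes kept for clustering, 22 with the mean of per-cell CPM, 21 with no doublets removed and 14 with the cluster mix matched. Of those that could still be read, 25 of 26 stayed so at resolution 2, 24 of 26 with a stricter cell filter, 19 of 23 with each library clustered by itself and 21 of 26 without shared barcodes. TMM factors turned 5 of the 93 ratios, all of them under 2-fold as reported, and in neutrophil-like cells took Ptgs2 and Lta4h, CO hydrogel to untreated, to -1.86 and -1.14. Ptger4, with 331 UMIs, is limited by depth in every class, as are cells under 1000 UMIs.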
